A study of Mus musculus with 60 samples.

Results

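The genes followed here are 48 mouse genes of presynaptic vesicle release, named as a list of symbols. They are 13 synaptotagmins, 3 synapsins, 5 SNARE genes, 3 complexins, 4 priming factors, 8 active zone scaffold genes and 6 vesicle membrane proteins. The other 6 are genes for Rab3 proteins, rabphilin and Doc2 proteins. All 48 symbols matched 1 row each among the 20423 genes of the count table, and all 48 passed the filter on low counts in every comparison. RNA was sequenced from cerebral cortex, striatum and cerebellum of mice deficient in paraoxonase 2 (PON2, a lactonase and antioxidant enzyme of mitochondria and other membranes) and of wild-type mice. The deficient mice were homozygous, the wild-type mice were their littermates from heterozygous parents, and all were on a C57BL/6J background. The labels name no drug or other agent in either genotype. The mice were 3 to 4 months old and had been through behavioural tests, and 5 libraries were made for each sex and genotype in each region, 60 in all. The labels name no tissue-specific driver for the deficiency, and each library came from a piece of bulk tissue. A lower level in bulk tissue therefore cannot be split into fewer cells of a type and less RNA per cell.

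Neurotransmitter is packed in synaptic vesicles, which are tethered to the active zone by scaffold proteins (RIM, Bassoon, Piccolo, ELKS), made ready by priming factors (Munc13, CAPS) and fused with the membrane by SNARE proteins (synaptobrevin on the vesicle, syntaxin and SNAP-25 on the plasma membrane). Synaptotagmins sense the calcium that triggers fusion, complexins clamp and support the SNARE complex, and synapsins hold the reserve pool of vesicles. Rab3 proteins with their effector rabphilin bring vesicles to the release site. Most of these proteins are made by several paralogous genes, and neurons that release with different speed and reliability are known to use different sets of them.

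The promoters of 4 members are printed because the results below turn on them. Stx1a had the widest range between regions, Syt2 ran in the opposite direction, Unc13a had the smallest genotype p in cortex, and Syn1 carries 2 of the motifs searched. RefSeq gives a promoter of 300 bases (250 before the transcript start and 50 after it, build GRCm38.p6) for 35 of the 48 members. Capitals mark the GC box (GGGCGG), the CRE (TGACGTCA) and the left part of the RE1 element (TTCAGCACC), on either strand. The windows are chr5:135023232-135023531 on the plus strand for Stx1a, chr1:134646362-134646661 on the plus strand for Syt2 (1 of its 2 listed starts), chr8:71671708-71672007 on the minus strand for Unc13a and chrX:20920869-20921168 on the minus strand for Syn1.
Stx1a: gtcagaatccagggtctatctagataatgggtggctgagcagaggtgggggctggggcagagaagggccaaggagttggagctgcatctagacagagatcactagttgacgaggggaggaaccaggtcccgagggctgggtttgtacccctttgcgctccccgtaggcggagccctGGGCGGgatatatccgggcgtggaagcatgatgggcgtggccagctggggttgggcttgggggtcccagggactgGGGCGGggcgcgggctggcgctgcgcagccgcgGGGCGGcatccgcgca
Syt2: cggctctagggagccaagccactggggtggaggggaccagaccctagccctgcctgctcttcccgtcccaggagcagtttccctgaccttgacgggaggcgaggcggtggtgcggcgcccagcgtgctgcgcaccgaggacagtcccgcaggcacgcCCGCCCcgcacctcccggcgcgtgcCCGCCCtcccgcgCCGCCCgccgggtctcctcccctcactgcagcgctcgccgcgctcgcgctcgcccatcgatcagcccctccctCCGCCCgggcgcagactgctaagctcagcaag
Unc13a: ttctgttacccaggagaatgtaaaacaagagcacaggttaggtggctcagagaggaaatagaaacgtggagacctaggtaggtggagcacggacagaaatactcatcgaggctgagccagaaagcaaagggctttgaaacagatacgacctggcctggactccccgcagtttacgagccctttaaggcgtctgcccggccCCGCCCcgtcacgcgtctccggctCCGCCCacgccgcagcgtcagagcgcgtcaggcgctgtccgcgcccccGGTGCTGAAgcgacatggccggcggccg
Syn1: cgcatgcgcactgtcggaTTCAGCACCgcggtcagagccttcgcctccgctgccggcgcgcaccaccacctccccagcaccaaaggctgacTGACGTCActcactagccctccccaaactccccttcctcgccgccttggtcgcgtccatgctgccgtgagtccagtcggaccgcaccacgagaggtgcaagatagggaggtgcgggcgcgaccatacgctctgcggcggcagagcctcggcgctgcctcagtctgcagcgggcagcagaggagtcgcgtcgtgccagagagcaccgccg
Counted from the transcript start, Stx1a had 3 GC boxes, Syt2 had 4 and Unc13a had 2. The left RE1 letters began at base -232 in Syn1 and, on the other strand, at base 23 in Unc13a. Of the 35 members with a promoter, 2 (5.71%) held those letters, against 0.521% of the 13627 genes of the count table that have one. The GC box was in 82.9% of the members and 61.9% of all genes, the CRE in 2.86% and 3.1%, and the E-box CAGCTG in 37.1% and 18.8%. The TATA letters TATAAA were in 5.71% and 10.1%, the right RE1 letters GGACAGC in 11.4% and 9.13%, and the core motif of NRF1 in 2.86% and 1.88%. The median GC content was 62.5% for members and 59.3% for all genes, and the median number of CpG dinucleotides in the window was 17.5 and 18. These are matches of letters and not measured binding.

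The libraries held 26.1 to 28.1 M estimated counts. Pon2 itself, given in CPM (its count scaled to a library of 1 M counts), lay between 50.2 and 58.9 in wild-type and between 2.34 and 5.63 in deficient cortex. It lay between 44.7 and 56.9 against 2.56 to 6.90 in striatum and between 39.2 and 51.3 against 0.454 to 1.25 in cerebellum, so every library matched its genotype label. Each region had the highest sum of its own neuron markers, with all 10 of 10 markers detected in each list. Striatal projection neuron markers summed to 4501 to 8874 CPM in striatum and at most 1540 CPM in cortex, and granule neuron markers summed to 5618 to 6504 CPM in cerebellum and at most 703 CPM in the other regions, where Rbfox3, a gene of most neurons, made up most of the sum. Cortical excitatory neuron markers summed to 6591 to 8521 CPM in cortex and also to 3137 to 5225 CPM in striatum, and oligodendrocyte markers to 7332 to 10826 CPM in striatum and 3546 to 5539 CPM in cortex. Their part in the region differences was not tested. The striatum library of PON2-deficient male 5 stood apart: its mean precision weight was 0.0527 of the median of its region and its transcript length slope was -0.251 where the other 59 libraries were at -0.0854 or above. That slope is of a library's log2 deviations from its region mean, over genes, on log2 transcript length. The values below include the striatum library of deficient male 5 unless its removal is stated.

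The first comparison asked which release genes each region used. The 48 genes together made up 18025 ± 631 CPM in cortex, 13822 ± 709 CPM in striatum and 13209 ± 429 CPM in cerebellum (mean ± SD, n = 20 libraries each). A gene was called different between regions when the adjusted p of edgeR's quasi-likelihood test was under 0.05 and the fitted change at least 2-fold. Between cortex and striatum, 6 members were called higher in cortex and 4 lower, 20.8% of the 48. The same calls covered 8.04% of all 20387 genes tested, 4.16% higher and 3.88% lower. Between cortex and cerebellum, 10 members were called higher in cortex and 5 lower (31.2%), against 25.3% of all genes, 15.5% higher and 9.72% lower. Between striatum and cerebellum, 11 were called higher in striatum and 7 lower (37.5%), against 26.5% of all genes, 15.6% higher and 10.9% lower. The shares against cerebellum are nearer to the background than the share between cortex and striatum. With no demand on size, 42, 44 and 40 of the 48 had an adjusted p under 0.05 in these comparisons, where 57%, 79.6% and 79.8% of all genes did.

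The region calls fell on some paralogs and not on others. In all, 25 of the 48 members were called in no region comparison, 6 in 1, 14 in 2, and 3 (Stx1a, Doc2a and Syt17) in all 3. The matching counts over all genes were not computed, so these numbers do not set the members apart from other genes. The median log2 difference over the members was 0.34 for cortex minus striatum and 0.43 for cortex minus cerebellum, where it was -0.0054 and -0.0029 over all genes tested. It was 0.09 for striatum minus cerebellum and 0.0029 over all genes.

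**Figure D1:**
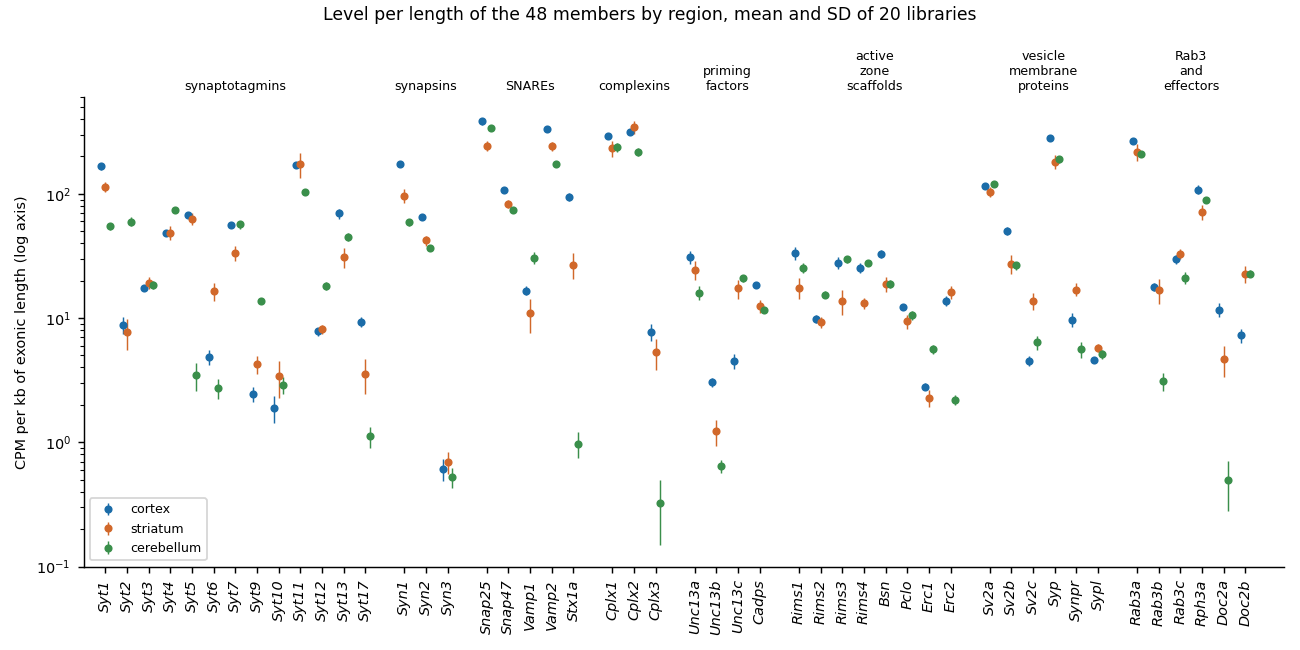
Level of each of the 48 genes in CPM per kb of exonic length (log axis), by region and grouped by role. Points are means of 20 libraries and bars are the SD. Snap25, Vamp2, Cplx2 and Syp are near the top in all 3 regions, and Stx1a, Syt5, Cplx3 and Doc2a drop away in cerebellum.

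Among the SNARE genes, syntaxin 1A (Stx1a, 1 of the plasma membrane syntaxins) differed most. Its level was 204 CPM in the lowest cortex library, 253 in the median and 293 in the highest. In striatum the lowest, median and highest were 38.0, 69.5 and 95.1 CPM, and in cerebellum 1.55, 2.64 and 3.90 CPM. The 3 ranges did not overlap. Cortex exceeded cerebellum by 6.61 on the log2 scale (SE 0.0963, adjusted p = 1.16e-50) and striatum by 1.83 (SE 0.0733, adjusted p = 1.49e-28). Striatum exceeded cerebellum by 4.78 (SE 0.0916, adjusted p = 4.28e-45).

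Snap25, the plasma membrane partner of syntaxin, had the highest mean level per length of all members in cortex and cerebellum, and Cplx2 was above it in striatum. It stood at 384 ± 25.3 CPM per kb in cortex, 242 ± 21.9 in striatum and 337 ± 19.4 in cerebellum (SD, n = 20). No region pair reached 2-fold for Snap25, the largest log2 difference being 0.67 between cortex and striatum (SE 0.0329, adjusted p = 1.02e-24). Its relative Snap47 ran from 191 to 308 CPM over cortex and striatum and from 181 to 213 CPM in cerebellum, with log2 differences of 0.55 at most.

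The synaptobrevins, the SNARE proteins of the vesicle, shifted between paralogs. Vamp2, the main form of forebrain synapses, was 1262 ± 43.7 CPM in cortex, 918 ± 83.4 in striatum and 665 ± 39.3 in cerebellum, with no pair past 2-fold. Vamp1, known from hindbrain and fast-firing neurons, was 279 to 433 CPM in cerebellum with a median of 302, and 68.9 to 190 CPM in striatum with a median of 102. It was lower in striatum than in cerebellum by 1.52 (log2 -1.52, SE 0.0690, adjusted p = 3.15e-27), and its level in cortex (140 to 208 CPM) lay between. Per kb of exonic length, Vamp1 made up 4.77% ± 0.38 of the pair in cortex, 4.33% ± 1.2 in striatum and 14.96% ± 1.59 in cerebellum.

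**Figure D2:**
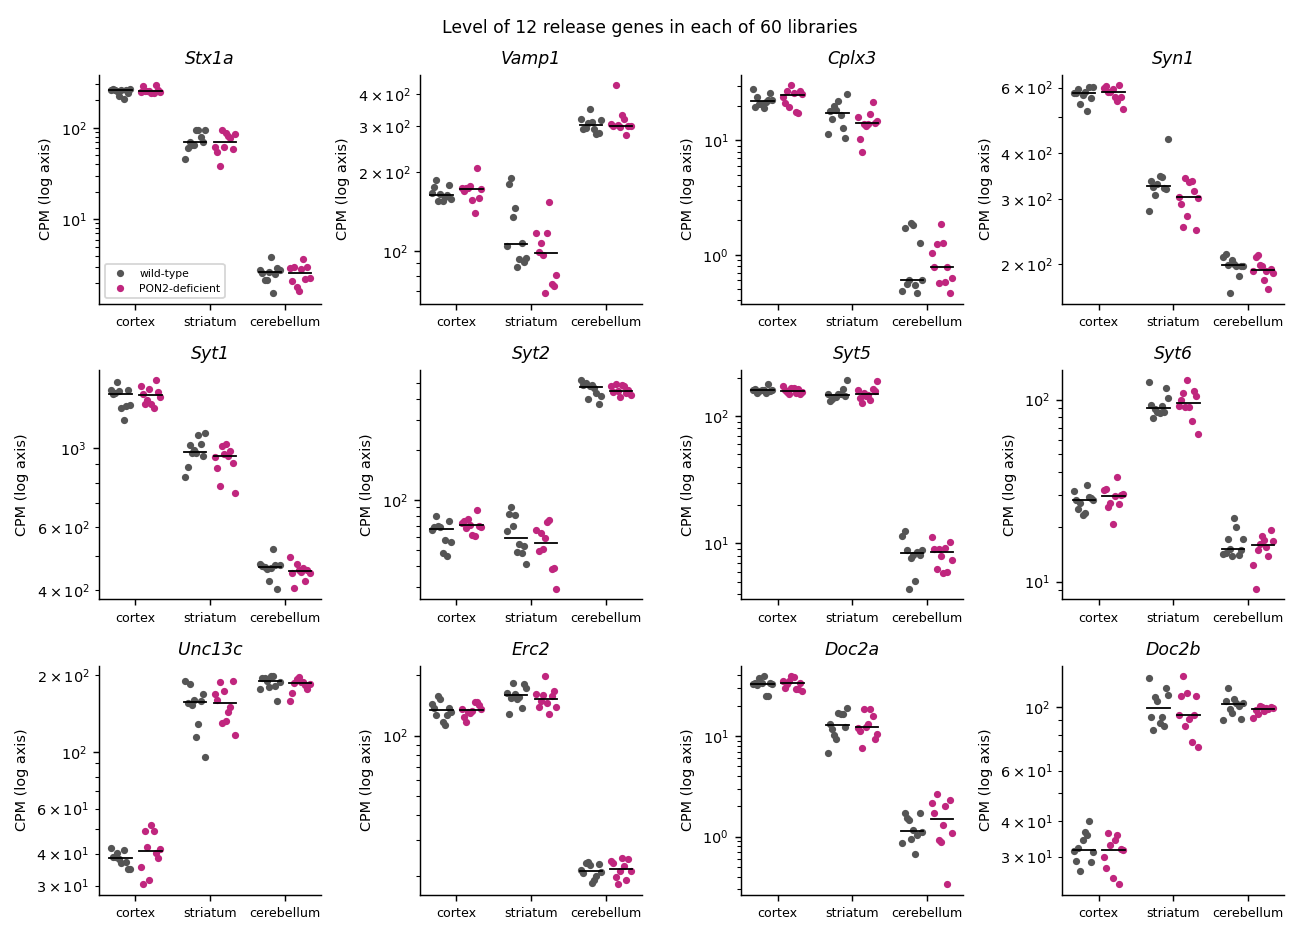
CPM (log axis) of 12 release genes in each of the 60 libraries, by region. Grey points are wild-type, magenta points PON2-deficient, and black lines the group medians. Stx1a falls from 253 CPM in the median cortex library to 2.64 in cerebellum, and Syt2 and Unc13c run the other way.

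Among the 13 synaptotagmins, calcium sensors and their calcium-independent relatives, some genes were higher in forebrain and others in cerebellum. In cortex 3 were called higher and 3 lower than in cerebellum (46.2%, against 25.3% of all genes), and 2 higher and 1 lower than in striatum (23.1%, against 8.04%). In striatum 4 were called higher and 3 lower than in cerebellum (53.8%, against 26.5%). Syt1, the main fast sensor of forebrain synapses, ran from 1197 to 1547 CPM in cortex, 750 to 1103 in striatum and 403 to 522 in cerebellum. The difference of cortex over cerebellum was 1.61 on the log2 scale (SE 0.0348, adjusted p = 1.41e-42), and that of striatum over cerebellum 1.06 (SE 0.0343, adjusted p = 3.76e-34). Syt2, the fast sensor of hindbrain and inhibitory synapses, showed the opposite order. Its lowest, median and highest levels were 46.3, 68.9 and 87.2 CPM in cortex, 29.3, 56.4 and 90.2 in striatum, and 375, 459 and 519 in cerebellum. The cerebellum libraries lay apart from all others, with cortex lower by 2.76 (log2 -2.76, SE 0.0756, adjusted p = 1.25e-37) and striatum lower by 2.97 (log2 -2.97, SE 0.0764, adjusted p = 5.47e-39). In cerebellum the mean levels were 456 CPM for Syt1 and 456 CPM for Syt2, and per kb 54.7 ± 3.4 and 59.7 ± 4.8, while in cortex they were 167 ± 10.7 and 8.82 ± 1.3 per kb.

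Syt5 was low in cerebellum. Its levels there were 4.40, 8.40 and 12.6 CPM (lowest, median, highest), against 149, 160 and 178 in cortex and 128, 148 and 190 in striatum. Cortex exceeded cerebellum by 4.27 (SE 0.0789, adjusted p = 8.24e-46) and striatum exceeded it by 4.18 (SE 0.0786, adjusted p = 1.86e-45), while cortex and striatum differed by 0.09 (SE 0.0667, adjusted p = 0.263). Syt17, a relative without calcium binding, was graded over the regions at 40.5 to 56.9, 8.94 to 28.2 and 3.57 to 8.01 CPM in cortex, striatum and cerebellum. All 3 of its region differences were called, at 1.40 for cortex minus striatum, 3.06 for cortex minus cerebellum and 1.66 for striatum minus cerebellum.

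Syt6 marked striatum and Syt9 cerebellum. Syt6 ran from 65.0 to 127 CPM in striatum, 20.7 to 37.5 in cortex and 9.13 to 22.4 in cerebellum. Striatum exceeded cerebellum by 2.60 (SE 0.0751, adjusted p = 1.49e-36) and cortex by 1.75 (log2 -1.75 for cortex minus striatum, SE 0.0723, adjusted p = 5.36e-28). Syt9, a fast sensor known from striatal and limbic neurons, was highest in cerebellum, at 49.7 to 62.2 CPM against 13.8 to 27.1 in striatum and 6.72 to 11.8 in cortex. Cortex was lower than cerebellum by 2.51 (log2 -2.51, SE 0.0557, adjusted p = 5.97e-42) and striatum by 1.70 (log2 -1.70, SE 0.0535, adjusted p = 9.93e-35). Syt12, a relative without calcium binding, was also called lower in both forebrain regions, at log2 -1.22 in cortex and -1.16 in striatum. Syt13, likewise without calcium binding, was called higher in cortex than in striatum, at 1.17 (SE 0.0586, adjusted p = 2.12e-24).

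The other 5 synaptotagmins were called in no region pair. Syt11, which does not bind calcium and has the highest level per kb of the family, stood at 171 ± 5.3 CPM per kb in cortex, 173 ± 40.2 in striatum and 104 ± 4.95 in cerebellum. Its highest value, 1772 CPM, was a striatum library, from the library that stood apart. Syt3 differed by at most 0.13 on the log2 scale, Syt4 by 0.60, Syt7 by 0.76 and Syt10 by 0.84. Syt10 was the least abundant of the 13 in cortex per kb, at 1.89 ± 0.477.

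Complexins 1 and 2 were common to all regions, and complexin 3 was a forebrain gene. Cplx2 had the highest level per kb of the 3 in cortex, 316 ± 19.1, and ran from 1332 to 1837 CPM there, from 1419 to 2093 in striatum and from 883 to 1284 in cerebellum. Cplx1 lay between 383 and 716 CPM over all 3 regions. Cplx3, known from ribbon synapses and some cortical interneurons and deep layer cells, was 17.2, 22.5 and 30.5 CPM in cortex and 7.88, 14.98 and 25.3 in striatum (lowest, median, highest). It was 0.462, 0.703 and 1.89 CPM in cerebellum, and no cerebellum library reached the lowest forebrain value. Cortex exceeded cerebellum by 4.59 (SE 0.153, adjusted p = 1.57e-33) and striatum exceeded it by 4.03 (SE 0.153, adjusted p = 6.11e-31).

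The Munc13 genes, whose proteins open syntaxin to prime vesicles, differed in their mix. Unc13a, the main form of excitatory synapses, was the member with the highest level per kb among the priming factors in cortex, at 30.9 ± 3.57 CPM per kb. It ran from 301 to 467 CPM in cortex, 105 to 355 in striatum and 155 to 268 in cerebellum and was called in no pair, the largest difference being 0.95 for cortex minus cerebellum (SE 0.0714, adjusted p = 6.93e-18). The value of 105 was the striatum library that stood apart. Unc13a shares 495 exonic bases with Colgalt1 on the opposite strand, and whether counting used strand is not given in the sources used here. Unc13b was called higher in cortex than in both other regions, at 56.7 to 79.2 CPM against 13.5 to 40.4 in striatum and 12.02 to 17.9 in cerebellum. Its log2 differences were 1.32 for cortex minus striatum (SE 0.0709, adjusted p = 3.73e-23) and 2.24 for cortex minus cerebellum (SE 0.0736, adjusted p = 8.06e-34).

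Unc13c, known from cerebellar granule cells, was high in striatum as well as in cerebellum. Its lowest, median and highest levels were 30.3, 38.8 and 51.6 CPM in cortex, 95.8, 157 and 189.8 in striatum, and 158, 186 and 198 in cerebellum. Cortex was lower than cerebellum by 2.21 (log2 -2.21, SE 0.0598, adjusted p = 6.55e-38) and lower than striatum by 1.94 (log2 -1.94, SE 0.0593, adjusted p = 1.85e-33), while striatum and cerebellum differed by 0.27 (log2 -0.27, SE 0.0567, adjusted p = 2.49e-05). Of the granule cell markers, Gabra6 had a median of 0.0812 CPM in striatum and 536 CPM in cerebellum, and Fat2 0.0756 and 605 CPM. Zic1, from the same list, had 43.7 CPM in striatum and 24.3 in cortex. The striatum medians of Rbfox3, Etv1, Cbln1 and Zic2 were 327, 64.2, 10.9 and 10.0 CPM. Those of Neurod1, Cbln3 and Barhl1 were 1.895, 0.851 and 0.047 CPM. The source of the Unc13c RNA in striatum was not tested. Cadps, the gene of the priming factor CAPS, was called in no pair and lay between 135 and 302 CPM in all libraries.

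In the active zone, the ELKS genes exchanged places. Erc2, the neuronal form, ran from 113 to 157 CPM in cortex and 128 to 198 in striatum, against 18.1 to 24.6 in cerebellum. Cortex exceeded cerebellum by 2.64 (SE 0.0460, adjusted p = 5.07e-47) and striatum exceeded it by 2.87 (SE 0.0463, adjusted p = 1.23e-48). Erc1, the widely expressed form, was 68.4 to 105 CPM in cerebellum and 18.4 to 45.9 in striatum, lower in striatum by 1.29 (log2 -1.29, SE 0.0536, adjusted p = 4.14e-29). For cortex minus cerebellum its log2 difference was -0.998 (SE 0.0532), just under the 2-fold limit. Erc1 shares 1309 exonic bases with an antisense gene that is also in the count table.

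RIM genes, which link vesicles to calcium channels, showed smaller differences. Rims1 had the highest level per kb of the scaffolds in cortex, 33.2 ± 3.87 CPM per kb beside 32.8 ± 2.24 for Bsn, and Rims1 differed by 0.92 at most, between cortex and striatum. Rims3 and Rims4, short forms of RIM, were called lower in striatum than in cerebellum, at log2 -1.11 (SE 0.0674) and -1.06 (SE 0.0384). Rims3 was also called higher in cortex than in striatum at 1.02 (SE 0.0673). That difference was 0.99 without the striatum library that stood apart, 0.997 without replicate 4 and 0.98 without replicate 5, and the call was then lost. Rims2, Bassoon (Bsn) and Piccolo (Pclo) were called in no pair. Bsn was 523 ± 35.7 CPM in cortex and 299 ± 42.0 and 300.4 ± 20.9 in striatum and cerebellum.

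Of the synapsins, Syn1 was called higher in cortex than in cerebellum, at 519 to 610 against 167 to 213 CPM (log2 1.56, SE 0.0367, adjusted p = 8.4e-41). Striatum lay between at 248 to 436 CPM. Syn2 differed by 0.81 at most and Syn3 by 0.41. Syn3 was at most 11.5 CPM in any library and shares 1733 exonic bases with Timp3, which lies inside it on the opposite strand.

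Of the 6 vesicle membrane proteins, 4 were called in no region pair. Synaptophysin (Syp), a standard marker of vesicles, was 1454 ± 52.6, 945 ± 124 and 990 ± 67.6 CPM in cortex, striatum and cerebellum and was called in no pair. The glycoproteins Sv2a and Sv2b and the synaptophysin relative Sypl were called in none either. Sv2c, known as the form of basal ganglia neurons, was 74.2 to 159 CPM in striatum, 35.4 to 52.1 in cortex and 50.4 to 76.8 in cerebellum. It was higher in striatum than in cortex by 1.60 (log2 -1.60 for cortex minus striatum, SE 0.0571, adjusted p = 1.04e-30) and than in cerebellum by 1.11 (SE 0.0562, adjusted p = 4.39e-25). Synaptoporin (Synpr) was called higher in striatum than in cerebellum, at 128 to 197 against 43.7 to 73.3 CPM (log2 1.60, SE 0.0595, adjusted p = 2.37e-31). Sypl differed by 0.32 at most.

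Among the genes for Rab3, rabphilin and Doc2, Rab3a led everywhere. It was at 266 ± 8.97 CPM per kb in cortex, 217 ± 33.6 in striatum and 210 ± 11.9 in cerebellum. Rab3b was 54.5 to 70.2 CPM in cortex and 45.9 to 101 in striatum, against 7.10 to 13.7 in cerebellum. Its log2 differences over cerebellum were 2.53 (SE 0.0749, adjusted p = 5.74e-36) and 2.45 (SE 0.0748, adjusted p = 2.3e-35). Rab3c and rabphilin (Rph3a) were called in no pair.

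The Doc2 genes, high-affinity calcium sensors of spontaneous and asynchronous release, were used in opposite directions. Doc2a ran from 24.9 to 39.3 CPM in cortex, 6.69 to 18.8 in striatum and 0.337 to 2.67 in cerebellum, and the 3 ranges were separate. Its log2 differences were 1.34 for cortex minus striatum (SE 0.109, adjusted p = 6.81e-16), 4.57 for cortex minus cerebellum (SE 0.135, adjusted p = 4.3e-36) and 3.23 for striatum minus cerebellum (SE 0.133, adjusted p = 3.56e-29). Doc2b ran from 24.0 to 39.9 CPM in cortex, 72.4 to 128 in striatum and 90.2 to 117 in cerebellum. It was lower in cortex by 1.64 against striatum (log2 -1.64, SE 0.0563) and by 1.65 against cerebellum (log2 -1.65, SE 0.0563), and striatum and cerebellum differed by 0.01. Doc2a shares 815 exonic bases with Ino80e on the opposite strand.

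**Figure D3:**
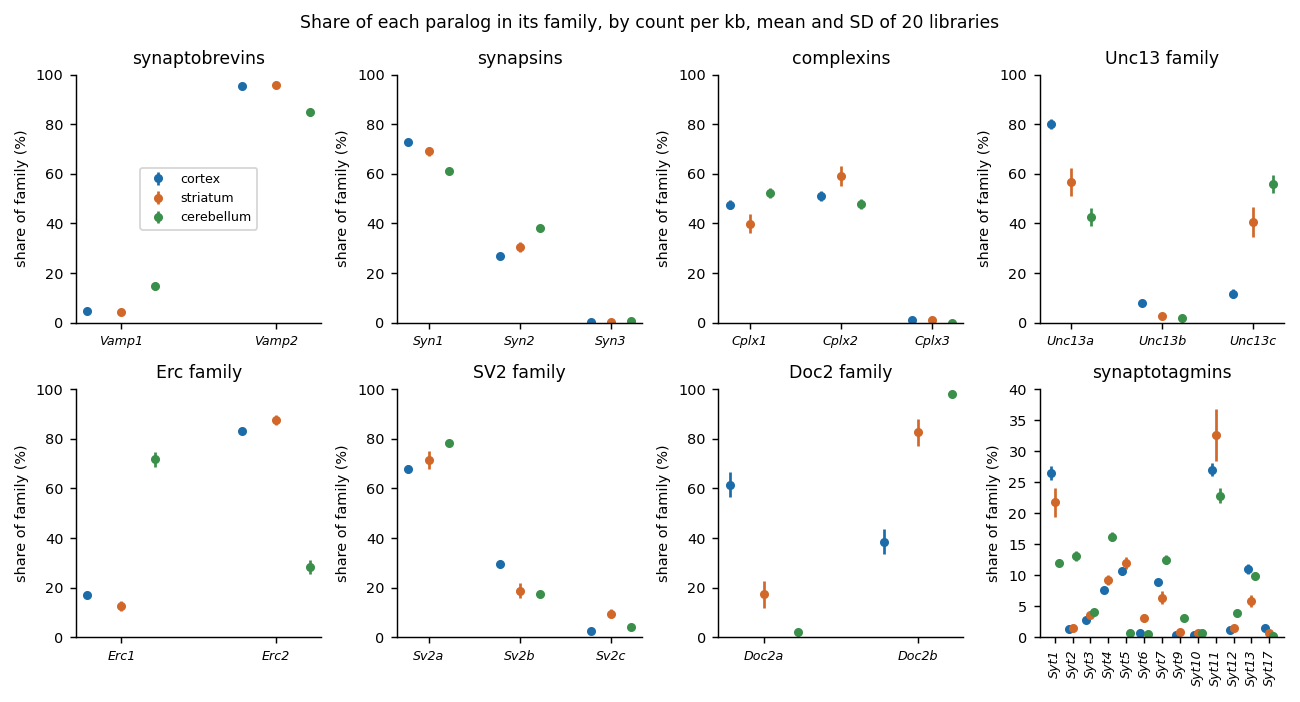
Share of each paralog in the summed level of its family, from CPM per kb of exonic length, for 8 families. Points are means of 20 libraries per region and bars the SD, and the synaptotagmin panel has its own scale. The Doc2, Erc and Unc13 families change their leading gene between regions, and for Unc13 that change rests on the use of exonic length.

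Paralog use was described as each gene's share of its family's summed CPM per kb of exonic length, with no test. Of 13 families, 5 had a leading gene that differed between regions. In the Doc2 family, Doc2a made up 61.4% ± 5.0 in cortex, 17.3% ± 5.4 in striatum and 2.13% ± 0.94 in cerebellum, and Doc2b the rest. In the Erc family, Erc2 made up 83.0% ± 1.1 and 87.5% ± 1.9 in cortex and striatum, and Erc1 71.7% ± 2.9 in cerebellum. These changes of leader also held with the mean transcript length and with no division by length. For Doc2 the lead in cortex was then narrow: Doc2a held 50.7% with no division by length. The Doc2a share in striatum was 40.9% ± 9.5 with the mean transcript length.

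In the Unc13 family the share of Unc13a was 80.2% ± 2.0, 56.6% ± 5.7 and 42.4% ± 3.7 in cortex, striatum and cerebellum, and that of Unc13c 11.8% ± 1.7, 40.5% ± 6.0 and 55.8% ± 3.7. Unc13a led in cerebellum too with the mean transcript length, at 71.8% ± 2.7, and with no division by length, at 50.2%. The order of these genes within a region therefore rests on the length used. The direction over regions did not: with the mean transcript length the share of Unc13c was 3.16%, 14.7% and 24.1%. The leaders among complexins and RIM genes also differed between regions with exonic length, by small margins: Cplx2 held 51.1% ± 1.9 in cortex and Cplx1 52.2% ± 2.1 in cerebellum, and Rims1 34.4% ± 2.1 in cortex and Rims3 30.2% ± 1.2 in cerebellum. For complexins that difference was lost with the other lengths: Cplx1 led all 3 regions with the mean transcript length (59.5%, 52.1% and 64.5% in cortex, striatum and cerebellum), and Cplx2 led all 3 with no division by length (69.99%, 76.3% and 67.3%). Among RIM genes, Rims2 led in striatum (36.9%) and cerebellum (34.4%) with the mean transcript length. In 8 families 1 gene led in all regions with exonic length: Snap25, Vamp2, Syn1, Bsn, Sv2a, Syp, Rab3a and Syt11. With the mean transcript length 29 of the 39 leaders (13 families in 3 regions) were the same, and Syn2 then led the synapsins in striatum and cerebellum and Syt1 or Syt7 the synaptotagmins.

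Within the synaptotagmins, Syt1 and Syt11 had the highest shares in cortex, at 26.5% ± 1.14 and 27.0% ± 1.07. In cerebellum the share of Syt1 was 12.05% ± 0.62, beside 13.1% ± 0.78 for Syt2, 16.2% ± 0.78 for Syt4, 12.5% ± 0.72 for Syt7 and 22.8% ± 1.19 for Syt11. Syt5 held 10.6% ± 0.51 in cortex and 12.01% ± 0.94 in striatum, but 0.768% ± 0.19 in cerebellum. The SV2 family was led by Sv2a, and Sv2c held 9.61% ± 1.8 in striatum and 2.68% ± 0.30 in cortex. Among 107 paralog pairs, the longest protein-coding transcripts shared at most 36 identical bases in a row, with a median of 14. Reads were 150 nt long. Other transcripts and runs with mismatches were not compared, and the assignment of reads between paralogs was not tested.

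Shares were also compared between genotypes, with no test. Over the 45 gene shares of the 13 families in 3 regions, 114 of 135 mean shares differed by under 1 percentage point. Some shares were too small to move that far, such as Syn3 at 0.249% in wild-type cortex. In families of only a pair of genes, the shares mirror each other. The count alone therefore does not show that the shares were stable. In cerebellum the largest difference was for Unc13c, 57.2% ± 3.21 in wild-type and 54.4% ± 3.85 in deficient mice (SD, n = 10). In striatum it was for Syn2, 29.5% ± 1.46 and 31.4% ± 1.90, and in cortex for Doc2a, 60.5% ± 5.75 and 62.4% ± 4.27. Of these 3 gaps, those of Unc13c and Doc2a were smaller than the larger SD of their groups.

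A wider list of 74 other release genes (chosen with earlier results of these data known) gave 70 that were in the count table. Of these, 6 were called higher and 3 lower in cortex than in striatum (12.9%), 15 higher and 7 lower in cortex than in cerebellum (31.4%), and 11 higher and 11 lower in striatum than in cerebellum (31.4%). These shares stand beside 8.04%, 25.3% and 26.5% of all genes. Slc17a8 (the vesicular glutamate transporter VGLUT3) was higher in striatum than in cerebellum by 6.12 (SE 0.167) and than in cortex by 1.56 (log2 -1.56, SE 0.118), at 14.2 ± 2.02, 0.204 ± 0.204 and 4.82 ± 0.646 CPM. Slc17a7 (VGLUT1), which is also in the cortical marker list, was higher in cortex than in striatum by 1.84 (SE 0.105). Slc32a1, the vesicular transporter of inhibitory neurons, was lower in cortex than in striatum by 1.08 (log2 -1.08, SE 0.0385).

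The cerebellum again differed by paralog. Syt16 (log2 4.15, SE 0.0989), Otof (3.46, SE 0.0846) and Rimbp2 (3.38, SE 0.0885) were called higher in cortex than in cerebellum. Rimbp2, which binds RIM, was 168 ± 13.1 CPM in cortex and 16.3 ± 3.63 in cerebellum. Cadps2, the paralog of Cadps, was called higher in cerebellum, at 229 ± 12.6 CPM against 72.2 ± 6.71 in cortex and 36.0 ± 8.25 in striatum. Lin7a (log2 -1.78 for cortex minus cerebellum), Ppfia4 (-1.76) and Vamp8 (-1.60) were also called lower in cortex than in cerebellum.

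The main comparison of the study was between genotypes. No member was called at an adjusted p under 0.05 in edgeR's quasi-likelihood test in any region, over both sexes or in either sex. In cortex over both sexes 0 of 48 were called, where 6 of 18972 genes (0.0316%) were; in females the share of all genes called was 0.00527% and in males 0.148%. In striatum these shares were 0.0105%, 0.00527% and 0.00527%, and in cerebellum 0.0321%, 0.00534% and 0.016%. In DESeq2, which called more genes in each of these, 1 member was called in cortex over both sexes (Unc13a), where 1.25% of all genes were. DESeq2 called 3 in cortex of males (Unc13a, Rims1 and Bsn; 2.28% of all genes), 1 in cerebellum over both sexes (Cadps; 1.3% of all genes), and 0 in the other comparisons by region and sex. In counts simulated with these libraries' sizes and estimated spread, edgeR recovered 38%, 14% and 48% of genes changed 1.2-fold in cortex, striatum and cerebellum. It recovered 80%, 74% and 70% of those changed 1.5-fold. The changed genes were drawn at random above a low count, and no length slope or tissue mix was simulated. These shares therefore do not give the recovery to expect for the members.

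At an unadjusted p under 0.05 the members stood near the background in most comparisons. In cortex over both sexes 5 members were under it, all 5 higher in deficient mice (10.4%), against 11.4% of all genes, 6.53% higher. In cortex of males 11 were, all higher (22.9%), against 14% of all genes, 7.82% higher, and in females 3 (6.25%) against 6.6%. In striatum 2, 3 and 1 members were, over both sexes, in females and in males, against 4.94%, 4.08% and 5.96% of all genes. In cerebellum 3, 1 and 2 were, against 11.1%, 5.16% and 10.6%. Over both sexes the CPM ranges of the genotypes overlapped for every member in each region. How often ranges separate within a sex was not counted, over the members or over all genes.

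**Figure D4:**
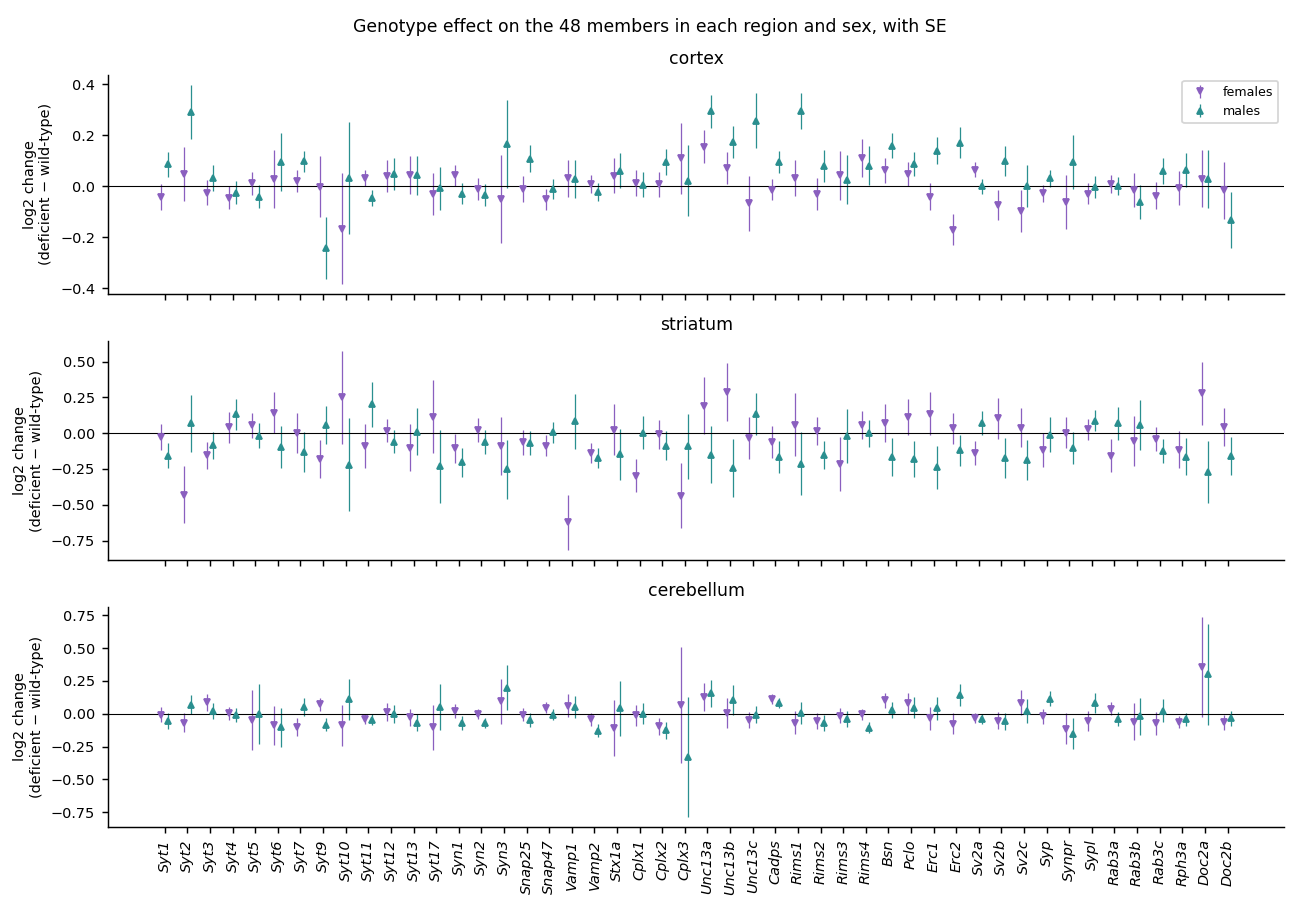
Log2 difference of PON2-deficient minus wild-type for the 48 genes in cortex, striatum and cerebellum, in females (down triangles) and males (up triangles), with the SE from edgeR. No member passed an adjusted p under 0.05 in these edgeR fits; Unc13a and Rims1 in cortex of males, at 0.29 and 0.30, had the smallest p values there.

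In cortex, over both sexes, the priming and active zone genes lay on the higher side in deficient mice. All 4 priming factors and all 8 scaffold genes had a log2 difference above 0, with medians of 0.11 and 0.06. Among the scaffolds, Erc2 was lower in females and higher in males. Genes measured in the same libraries are not separate replicates. Upper quartile scaling shifted the log2 differences of the members by a median of -0.0195, which touches these genes too. None of the 12 was called in edgeR with all libraries and no added term, and DESeq2 called Unc13a. Of all 48 members 35 were higher, with a median of 0.03, where 49.8% of all genes were higher. That split depended on the scaling: with upper quartile scaling 26 of the 48 were higher, and 25 in males alone in place of 36. The log2 differences of the 48 members had a Spearman correlation of 0.38 with mean transcript length in males and 0.09 in females. Over all genes those correlations were 0.16 and -0.01.

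Unc13a had the smallest p of the members in cortex. In males the 5 wild-type libraries had 340, 301, 354, 349 and 338 CPM, and the 5 deficient libraries 400.5, 394, 460, 412 and 399.9 CPM, which did not overlap. In females the wild-type libraries had 429, 403, 349.6, 390.3 and 343 CPM and the deficient libraries 452, 467, 419, 415 and 381 CPM, which did. The log2 difference was 0.23 over both sexes (SE 0.0453, adjusted p = 0.055), 0.29 in males (SE 0.0641, adjusted p = 0.0654) and 0.16 in females (SE 0.0641, adjusted p = 0.697). Over both sexes the adjusted p for Unc13a was 0.00158 in DESeq2 and 0.0346 with a term for each library's length slope, and it ranged up to 0.138 over the alternatives tried. With the replicate block Unc13a was called over both sexes (adjusted p = 0.00976) and in males (adjusted p = 0.0212), and DESeq2 called it in males too (adjusted p = 0.00302).

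Rims1 and Bsn were next. In males Rims1 was 200.3, 188, 176, 244 and 224 CPM in wild-type and 243, 247, 269, 252 and 262 CPM in deficient cortex, where only the fourth wild-type library reached the deficient range. In females it was 242 to 273 CPM in wild-type and 239.6 to 296 CPM in deficient cortex. Its log2 difference was 0.16 over both sexes (SE 0.0501, adjusted p = 0.186) and 0.30 in males (SE 0.0709, adjusted p = 0.0766). Without that library the value in males was 0.36 (adjusted p = 0.041), and with the length slope in the model it was 0.19 (adjusted p = 0.292). In DESeq2 Rims1 was called in males (adjusted p = 0.00741). Bsn had 0.11 (SE 0.0346, adjusted p = 0.196) and Unc13b 0.12 (SE 0.0438, adjusted p = 0.276) over both sexes.

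The mean transcript length slope in cortex was -0.0223 in wild-type and 0.00772 in deficient males, and 0.00826 and 0.00628 in females. The slope ran from -0.0551 to 0.0112 in wild-type males and from -0.00643 to 0.0248 in deficient males. In females it ran from -0.00718 to 0.0396 and from -0.00512 to 0.0194. Beyond the fits with the slope given above, its part was not tested.

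**Figure D5:**
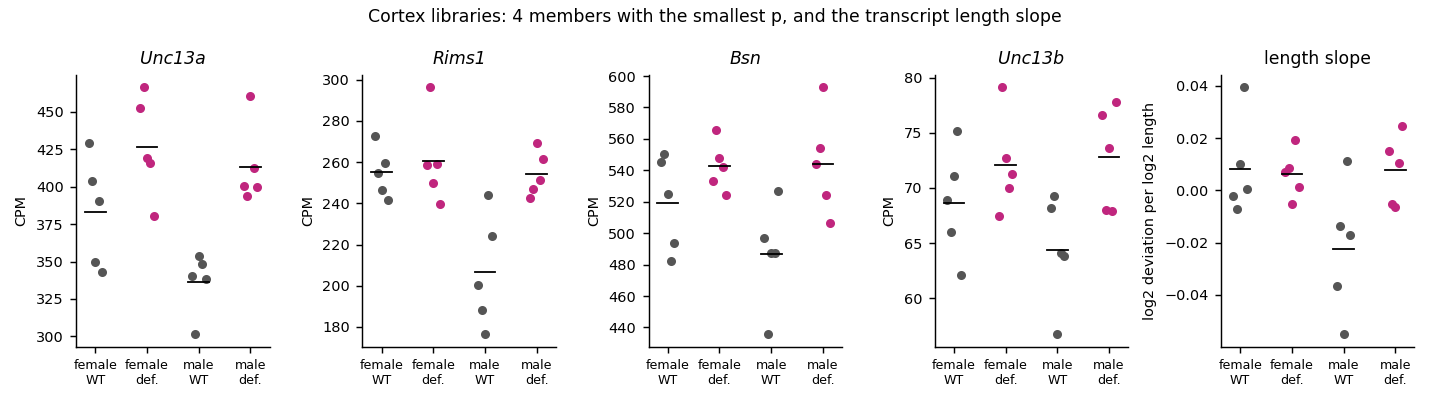
CPM of Unc13a, Rims1, Bsn and Unc13b in the 20 cortex libraries by sex and genotype, and, at the right, the transcript length slope of the same libraries. Lines are group means. For Unc13a the deficient males lie at 394 CPM and above and the wild-type males at 354 CPM and below.

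Erc2 differed between the sexes in direction, without passing the test. In females it was 144, 137, 127, 157 and 151 CPM in wild-type and 136, 124, 117, 131 and 129.98 CPM in deficient cortex. In males it was 117, 113, 127, 136 and 131 CPM in wild-type and 132, 148, 146, 141 and 136 CPM in deficient cortex. The ranges overlapped in both sexes. The log2 difference was -0.17 in females (SE 0.0596, adjusted p = 0.624) and 0.17 in males (SE 0.0597, adjusted p = 0.196), and the sex difference of the genotype effect was 0.34 (SE 0.0844, adjusted p = 0.303 in edgeR and 0.0352 in DESeq2). In edgeR none of the 48 sex differences was called in any region, where 0% of all genes were. In DESeq2, Erc2 in cortex was the 1 member called, where 0.269% of all genes were. At an unadjusted p under 0.05 there were 4, 1 and 1 members in cortex, striatum and cerebellum, against 9.56%, 4.31% and 4.73% of all genes.

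In striatum more members were lower than higher in deficient mice over both sexes and in males, but not in females. Over both sexes 36 of 48 had a log2 difference under 0 (median -0.05), where 53.9% of all genes were above 0, and with upper quartile scaling 38 did. In females the split was 24 and 24, and in males 13 higher and 35 lower with a median of -0.10. Without the library of deficient male 5 the median in males was -0.06, with 36 lower, and 35 were lower over both sexes. Oligodendrocyte markers moved with the genotype in opposite directions in the sexes: their mean log2 CPM ran from 8.14 to 8.17 in wild-type and 8.26 to 8.54 in deficient males, without overlap, and from 8.42 to 8.65 and 8.22 to 8.48 in females. All 10 of 10 were detected, they summed to 7332 to 10826 CPM in striatum, and none was at 0. Their part in the split was not tested. All 5 SNARE genes, all 3 synapsins and all 3 complexins were among the lower over both sexes, and none was called in edgeR or DESeq2.

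Vamp2 had the smallest p in striatum. In females it was 888 to 997 CPM in wild-type and 761 to 917 CPM in deficient mice, and in males 923 to 1159 and 807 to 952 CPM, overlapping in both. The log2 difference was -0.16 (SE 0.0498, adjusted p = 0.753). Syn1 had -0.16 (SE 0.0717, adjusted p = 0.994) and Cplx1 -0.15 (SE 0.0798, adjusted p = 0.995). In females Cplx1 was 531, 605, 615, 581.5 and 581.2 CPM in wild-type and 429, 469, 496, 498 and 474 CPM in deficient mice, which did not overlap, with a log2 difference of -0.30 (SE 0.113, adjusted p = 1).

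Vamp1 in striatum of females had the largest genotype difference of these. Its levels were 105, 180, 190, 135 and 146 CPM in wild-type and 117, 98.8, 108, 96.9 and 68.9 CPM in deficient females, so 1 wild-type library lay inside the deficient range. In males it was 87.1 to 108 CPM and 73.6 to 154 CPM. The log2 difference was -0.62 in females (SE 0.193, adjusted p = 0.884) and -0.27 over both sexes (SE 0.136, adjusted p = 0.995). Markers of thalamus, which lies beside the striatum, moved with it: all 10 of 10 were detected, they summed to 152 to 607 CPM over the striatum libraries, and none was at 0. Their mean log2 CPM was 4.09, 4.79 and 5.63 in wild-type females (lowest, median, highest) and 3.39, 4.09 and 4.67 in deficient females. With that mean in the model the difference for Vamp1 in females was -0.28 (SE 0.163, adjusted p = 0.988). The part of thalamic tissue beyond that fit was not tested.

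In cerebellum Cadps had the smallest p. In females it was 161, 176, 172, 163 and 173 CPM in wild-type and 183, 185, 193, 180.3 and 171 CPM in deficient mice. In males it was 164, 162, 165, 171 and 174 CPM and 168, 175, 171, 181 and 188 CPM. The ranges overlapped in both sexes, and the log2 difference was 0.10 (SE 0.0285, adjusted p = 0.179 in edgeR and 0.0426 in DESeq2). Vamp2 had -0.09 (SE 0.0342, adjusted p = 0.335), Cplx2 -0.11 (SE 0.0462, adjusted p = 0.374) and Unc13a 0.14 (SE 0.0736, adjusted p = 0.492). Vamp2 in males was 667 to 750 CPM in wild-type and 577 to 650.1 CPM in deficient mice, without overlap, and 629 to 709 and 614 to 709 CPM in females, with overlap. In females Bsn had 0.10 (SE 0.0597, adjusted p = 0.96) after Cadps, and in males Rims4 had -0.11 (SE 0.0423, adjusted p = 0.36) after Vamp2. Over both sexes 19 members were higher and 29 lower, and 13 and 35 with upper quartile scaling.

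The genotype effect was also compared between regions, and no member was called there in edgeR or DESeq2. The shares of all 20387 genes called were 0% for cortex minus striatum, 0.0147% for cortex minus cerebellum and 0.00981% for striatum minus cerebellum. At an unadjusted p under 0.05 there were 5, 2 and 3 members, against 6.3%, 4.15% and 5.97% of all genes. The smallest p values were those of Vamp2 for cortex minus striatum (0.15, SE 0.0523, adjusted p = 0.56), Cplx2 for cortex minus cerebellum (0.16, SE 0.0785, adjusted p = 1) and Cadps for striatum minus cerebellum (-0.21, SE 0.0719, adjusted p = 0.692).

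Of the 70 other release genes, 1 was called in a genotype comparison in edgeR, in cortex of males, where 0.148% of all genes were. Nsf, the ATPase that takes SNARE complexes apart after fusion, was higher in deficient cortex of males by 0.17 (SE 0.0321, adjusted p = 0.0329). Its 5 wild-type libraries had 689, 669.9, 705, 695 and 699 CPM and its 5 deficient libraries 741, 779, 809.5, 787 and 789.9 CPM. The call was lost with upper quartile scaling, with the replicate block, with the length slope in the model and when any 1 of 9 of the 20 cortex libraries was left out: wild-type males 1, 2, 3 and 5, deficient males 3, 4 and 5, wild-type female 3 or deficient female 3. DESeq2 called 5 of the 70 (7.14%) in cortex of males, and 2.28% of all genes. It called 1 (1.43%) in cortex over both sexes, 1 in cerebellum over both sexes and 1 in cerebellum of males. The shares of all genes there were 1.25%, 1.3% and 1.08%.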

How the data were processed

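RNA of 60 libraries was analysed, 5 for each region, sex and genotype. The authors deposited expected counts per gene and log2 CPM with precision weights (a score). The submitters' processing notes name Salmon, edgeR and limma, without versions. For the genome build, the annotation and the strandedness of counting, nothing is given in the sources used here. Per gene and library, the deposited log2 values equal limma's voom transform of the deposited counts (offset 0.5), with a largest deviation of 5.33e-14 over 1225380 values. Expected counts were rounded to whole numbers. Of the 20423 gene IDs, 20403 matched GENCODE M21 (GRCm38), which gave symbols and lengths.

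Counts were tested with edgeR 4.0.16 in R 4.3.3 (quasi-likelihood F test, TMM scaling, filterByExpr), by region for genotype (20 libraries, 4 group means) and over all 60 libraries (12 group means) for regions. P-values were adjusted by Benjamini-Hochberg over all genes tested: 18972 in cortex, 18962 in striatum, 18710 in cerebellum and 20387 over all. CPM per kb used the summed exonic length. Totals of 26.1 to 28.1 M counts per library set the counting error, which is largest for the lowest genes, and p-values measure the spread between these libraries. The labels do not say that equal replicate numbers in different regions come from 1 mouse, and the region tests treat libraries as independent. Alternatives were DESeq2 1.42.0, upper quartile scaling, no filter, a replicate block, limma 3.58.1 on the deposited log2 values, covariates and left-out libraries. Scripts were tested on simulated data with 50 changed genes per fold size.

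The 48 members and all lists were chosen with earlier results of these data known. Named were the member with the highest level per kb of each role, members 4-fold apart between regions at 1 CPM or more, the 4 members with the smallest genotype p in each region and 2 in each sex, and up to 4 other release genes per direction; other members were named after their values were seen.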

Additional observations from a re-analysis of the deposited data

Results flagged for a closer look

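In 6 of the 60 groups of 5 libraries tested, 1 library lay apart from the other 4 by more than Dixon's 95% limit of 0.71 (gap to the nearest library over the range of the group, on the log2 scale). Chance gives about 1 in 20 groups. Unc13a was lowest in cortex of wild-type male 2, at 301 CPM against 338 to 354 CPM in the others (ratio 0.725). Unc13a was highest in cerebellum of deficient male 4, at 268 CPM (ratio 0.714). Syn1 was highest in striatum of wild-type male 5, at 436 CPM (ratio 0.747). Vamp2 was highest in cerebellum of wild-type male 1, at 750.4 CPM against 667 to 680.1 CPM (ratio 0.839), and lowest in cerebellum of deficient male 3, at 577 CPM against 630.02 to 650.1 CPM (ratio 0.735). Cplx2 was lowest in the same library of deficient male 3, at 883 CPM (ratio 0.762). Leaving out these libraries in turn is among the alternatives below.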

How the results depend on the processing

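All 79 single-gene results that were recomputed kept their direction under the alternatives run for them. The split of all 48 members by direction did not: upper quartile scaling turned 35 higher into 26 in cortex, and 19 into 13 in cerebellum. The counts of members called between regions were 10, 15 and 18, and with a 4-fold limit they were 0 for cortex minus striatum, 11 for cortex minus cerebellum and 8 for striatum minus cerebellum. Rims3 lost its call for cortex minus striatum in limma (0.99) and without replicates 4 (0.997) or 5 (0.98), and Erc1 gained one for cortex minus cerebellum in limma and without replicates 4 or 5. No member was called between genotypes in edgeR with TMM scaling, the filter, all libraries and no added term. For cortex over both sexes 1 member was called in DESeq2, with the replicate block and with the length slope, and 0 to 1 when 1 library was left out; it was Unc13a each time (adjusted p from 0.00158 in DESeq2 to 0.138 over the alternatives, and called without wild-type female 1 or deficient female 5). For cortex of males 3 were called in DESeq2, 1 with the replicate block and 0 to 3 when 1 library was left out, the 3 without wild-type male 4. DESeq2 also called 1 for the sex difference in cortex (Erc2) and 1 for cerebellum over both sexes (Cadps). The cause was not tested. Under the replicate block the region counts stayed 10, 15 and 18. The numbers were not treated as pairing the samples. Same-numbered libraries of different regions correlated over 0.1 in 28 of 60 pairs (median 0.0923), and differently numbered ones in 20 of 240 (median -0.0256). Same-numbered libraries were thus more alike across regions, and the main region tests, which treat libraries as independent, leave this out. Across genotypes, same-numbered libraries passed 0.1 in 2 of 10 pairs in cortex, 5 of 10 in striatum and 5 of 10 in cerebellum. Differently numbered ones did so in 4, 13 and 9 of 40 pairs. Depth limits Cplx3 and Doc2a in cerebellum, near 1 CPM.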
